A study of Mus musculus with 8 samples.

Results

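Committed oligodendrocyte precursors are the short-lived cells between dividing oligodendrocyte precursors and myelin-forming oligodendrocytes. Nuclei given this name here were picked out of single-nucleus RNA counts of mouse cerebral cortex by a rule on UMIs (unique molecular identifiers, 1 per captured RNA molecule). A nucleus was kept with at least 500 detected genes and mitochondrial UMIs of at most 2%. Members were chosen by UMIs of named genes: a member had at least 3 UMIs of Enpp6, Gpr17 and Bmp4 together and at least 2 of Bcas1, Sox10 and Tcf7l2 together. It could hold at most 1 UMI of Pdgfra, at most 1 of Slc17a7, Gad1 and Gad2 together, and at most 2 of Inpp5d and Flt1 together. The rule found 756 members among 77185 kept nuclei, or 0.979%. Because measured counts chose them, levels of these nuclei against other nuclei are descriptions and carry no test.

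The nuclei came from the cortex of 8 C57BL/6J mice at postnatal day 25, with the medial cortex removed. Of these, 4 were wild type (WT) and 4 were heterozygous for Chd8 (Chd8 +/-, labelled Chd8het), a chromatin remodeller. Each genotype had 2 males and 2 females, 1 library per animal, no other treatment or transgene, and the animals formed litter- and sex-matched pairs. Every sex and genotype had 1 single-indexed library (replicate 1) and 1 dual-indexed library (replicate 2). Libraries held 69503598 to 98132783 UMIs over all barcodes, and member nuclei had a median of 4155.5 UMIs and 1907.5 genes. Members numbered 82, 84, 93 and 109 in WT male 1, WT male 2, WT female 1 and WT female 2. The Chd8het libraries, ordered alike, held 82, 124, 91 and 91.

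An oligodendrocyte precursor that commits to differentiation stops dividing, loses the platelet-derived growth factor receptor Pdgfra and passes through a premyelinating state before it wraps axons. Gpr17 is a receptor that marks and restrains this transition, Enpp6 is a choline phosphodiesterase of newly formed oligodendrocytes, and Bmp4 is a secreted growth factor. Sox10 directs the lineage throughout, and Tcf7l2, a partner of beta-catenin, is transiently high during differentiation. In the cortex new oligodendrocytes are added in this way long after birth, while cortical myelin is laid down.

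SOX proteins bind the letters AACAAT, and TCF proteins such as Tcf7l2 bind ACAAAG or TCAAAG. These were searched on both strands in the 250 bases before the start of each gene, taken from RefSeq on GRCm38.p6. Shown are 4 genes on which the description below turns, with the matching letters in capitals, because each was above both neighbouring stages in all 8 libraries and its promoter held a match. The order of bases follows the gene's own strand. The Enpp6 match (chr8:46986637-46986886, plus strand) lies 220 bases before the start and spells AACAAT. The Tmem108 match (chr9:103761838-103762087, minus strand) lies 220 bases before the start and spells ACAAAG on the opposite strand. The Mpzl1 match (chr1:165634542-165634791, minus strand) lies 199 bases before the start and spells TCAAAG. The Fyn match (chr10:39369549-39369798, plus strand) lies 96 bases before the RefSeq start and spells TCAAAG on the opposite strand. GENCODE M21 places the start of Fyn further upstream, at chr10:39368855, so this stretch lies inside the gene in that annotation.
Enpp6: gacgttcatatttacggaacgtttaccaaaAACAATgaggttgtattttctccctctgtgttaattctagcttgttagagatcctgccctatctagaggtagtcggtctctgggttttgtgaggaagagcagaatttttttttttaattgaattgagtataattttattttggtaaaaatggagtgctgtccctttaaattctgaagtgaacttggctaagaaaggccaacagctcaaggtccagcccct
Tmem108: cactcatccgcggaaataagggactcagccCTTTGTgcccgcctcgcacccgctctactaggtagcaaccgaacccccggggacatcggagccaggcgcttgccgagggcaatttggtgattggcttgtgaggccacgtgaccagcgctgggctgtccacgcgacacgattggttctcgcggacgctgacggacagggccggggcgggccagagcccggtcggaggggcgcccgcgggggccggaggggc
Mpzl1: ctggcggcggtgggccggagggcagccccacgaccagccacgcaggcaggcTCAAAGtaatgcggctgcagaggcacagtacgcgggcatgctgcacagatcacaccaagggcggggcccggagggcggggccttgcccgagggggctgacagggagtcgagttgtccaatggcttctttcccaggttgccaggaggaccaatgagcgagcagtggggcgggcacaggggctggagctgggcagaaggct
Fyn: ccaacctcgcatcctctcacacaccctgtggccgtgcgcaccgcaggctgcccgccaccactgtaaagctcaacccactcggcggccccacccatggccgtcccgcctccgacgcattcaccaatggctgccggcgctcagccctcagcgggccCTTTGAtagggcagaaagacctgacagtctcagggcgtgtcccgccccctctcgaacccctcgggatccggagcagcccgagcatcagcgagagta

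AACAAT was present in 9.65% of the 27025 promoters in the table, ACAAAG in 16.5% and TCAAAG in 14.1%. Of the 339 genes of at least 50 CPM (counts per 1000000 UMIs) that were higher in members than in both neighbouring stages in all 8 libraries, 253 had a promoter in the table. Among these, 16 (6.32%) held AACAAT, 33 (13.0%) held ACAAAG and 16 (6.32%) held TCAAAG. Each of these 3 shares was below the share over all promoters. A match is a string of letters and shows no binding.

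Of 6 markers of the class, 5 were genes of the rule, so their detection was set by it, and Itpr2 was the only one outside it. Itpr2 also had a UMI in 788 of 1105 precursors (71.3%, median depth 3183 UMIs), so its detection separates members little from that stage. Enpp6 had a UMI in 701 of the 756 members (92.7%), Gpr17 in 387 (51.2%), Bmp4 in 302 (39.9%), Bcas1 in 707 (93.5%), Tcf7l2 in 601 (79.5%) and Itpr2 in 626 (82.8%). Itpr2 is an intracellular calcium channel. In 18200 excitatory neurons (at least 3 Slc17a7 UMIs, at most 1 of Gad1 and Gad2), where these genes should be lacking, the shares were 22.3% for Enpp6, 2.25% for Gpr17, 0.489% for Bmp4, 6.09% for Bcas1, 3.98% for Tcf7l2 and 5.87% for Itpr2. The neurons were deeper, with a median of 10978 UMIs. Of the members, 183 held UMIs of Enpp6, Gpr17 and Bmp4 alike, 274 held Enpp6 without the others, and 55 held no Enpp6. The class is therefore chiefly one of Enpp6-positive nuclei. Enpp6 is also a gene of newly formed oligodendrocytes, and the rule does not separate committed precursors from these. Committed precursors below means the nuclei that passed the rule.

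Members had a median of 5 UMIs of the 3 gate genes. Of them 214 (28.3%) had exactly 3, the threshold, and 415 (54.9%) had 5 or more. Just outside, 446 nuclei had 2 gate UMIs and met every other condition. Itpr2 was at 740 CPM in the 214 nuclei just inside and at 368 CPM in the 446 just outside. Slc1a2, the astrocyte glutamate transporter, was at 1532 and 2050 CPM in the same order.

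The members were not all of one kind. After the data were seen, they were divided by the UMIs they held of 10 astrocyte and 10 neuron markers, and 636 (84.1%) lay under both thresholds given next and had a UMI of Bcas1 or Sox10. These 636 still held 684 CPM of astrocyte and 3648 CPM of neuron markers. The oligodendrocyte precursors described below held 5250 and 9424 CPM of the same lists, levels near both thresholds. A nucleus past a threshold is therefore not shown to hold RNA of another cell type. Another 65 (8.60%) had over 0.5% of their UMIs in astrocyte markers. In these, Bcas1 was at 751 CPM and Sox10 at 105 CPM, against 3257 and 361 CPM in the 636. A further 45 (5.95%) had over 1% in neuron markers, with a median of 10520 UMIs, and 26 of the 45 were predicted doublets. The last 10 (1.32%) had no UMI of Bcas1 or Sox10 and entered by Tcf7l2 alone. They held Bnc2, a zinc finger protein of fibroblasts, at 2879 CPM and Col25a1, a membrane collagen, at 4538 CPM. In all, 40 members (5.29%) were predicted doublets, close to 5.48% of kept nuclei. The plot of marker shares per nucleus shows these subsets. No member barcode was shared between libraries, while kept nuclei shared 16 to 34 barcodes per pair of libraries.

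**Figure D1:**
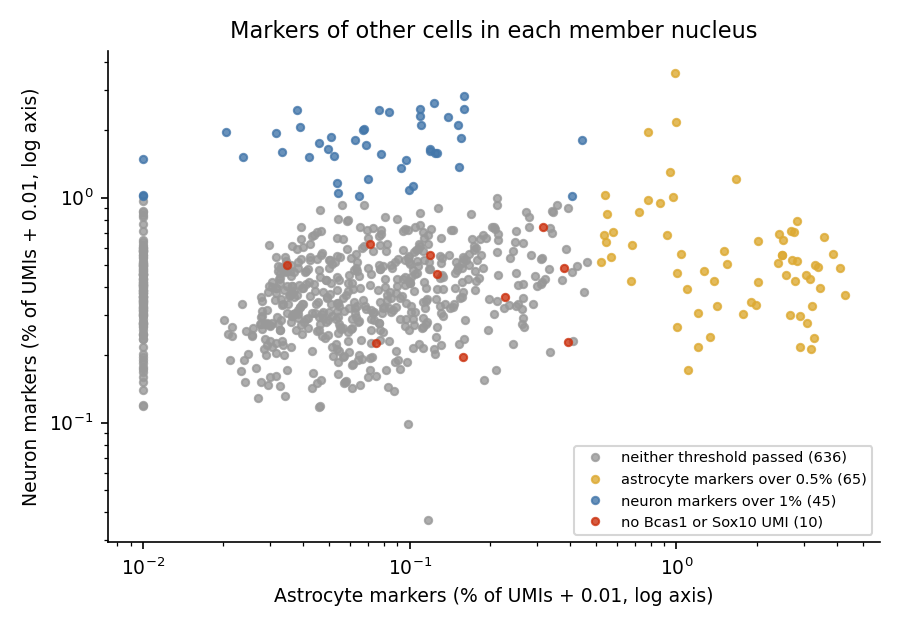
Each point is 1 of the 756 member nuclei, by its share of UMIs in 10 astrocyte markers (x axis) and 10 neuron markers (y axis), both in percent plus 0.01 on log axes. Colours give the 4 subsets, of 636, 65, 45 and 10 nuclei; the 65 lie to the right and the 45 at the top.

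Markers listed for other cells differed between libraries by index type. Precursors also held the astrocyte and neuron lists, as given above. The 10 astrocyte markers together ranged from 789 to 1613 CPM in the single-indexed libraries and from 2267 to 4276 CPM in the dual-indexed libraries, with no overlap. The nuclei with astrocyte markers numbered 6, 2, 4 and 2 in the single-indexed and 9, 19, 11 and 12 in the dual-indexed libraries. The 10 neuron markers ranged from 4020 to 7163 CPM and from 5025 to 9340 CPM, and overlapped. Between genotypes both lists overlapped: astrocyte markers spanned 789 to 4276 CPM in WT and 890 to 3321 CPM in Chd8het libraries. Microglia markers summed to 189 to 355 CPM and vascular markers to 10.3 to 68.8 CPM over the 8 libraries. Their part in the results below was not tested except where a value without these nuclei is given.

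Members were then set beside 1105 oligodendrocyte precursors and 3539 mature oligodendrocytes. Precursors had at least 2 UMIs of Pdgfra and at least 1 of Olig1, Olig2 and Sox10 together. They also had at least 2 UMIs of Ptprz1, Lhfpl3, Vcan and Cspg4 together. Mature cells had at least 5 UMIs of Mog, Mag and Mobp and at most 1 of Pdgfra. Both groups could hold at most 2 UMIs of the gate genes. UMIs were summed per library and given in CPM. All 6 markers were above both neighbouring stages in every library. Enpp6 was at 960, 741, 910 and 889 CPM in WT male 1, WT male 2, WT female 1 and WT female 2. The Chd8het libraries, taken in that order, stood at 940, 920, 982 and 794 CPM. Precursors had 18.1 to 51.6 CPM and mature cells 72.9 to 121 CPM. The 3 ranges did not overlap.

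Gpr17 was at 335, 193, 269 and 216 CPM in the WT members and at 258, 169, 289 and 149 CPM in the Chd8het members. It was already present in precursors, at 57.6 to 142 CPM, and nearly gone from mature cells, at 3.73 to 11.7 CPM. Bmp4 was at 194, 63.6, 158 and 188 CPM in WT and at 152, 138, 212 and 98.4 CPM in Chd8het members. Precursors had 5.96 ± 3.72 CPM (SD, n = 8 libraries) and mature cells 0.886 ± 0.701 CPM. The rule asked for these genes in members and capped them in both neighbours, so the gaps follow in part from it.

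Itpr2 reached 1276 ± 158 CPM (SD, n = 8 libraries) in members against 440 ± 56.3 in precursors and 79.9 ± 29.2 in mature cells. Tcf7l2 was at 1609 ± 281 CPM against 110 and 125 CPM. Sox10 was used in choosing members and precursors alike. It was at 206 to 479 CPM in members and at 193 to 438 CPM in precursors, with members higher in 4 of 8 libraries. Pdgfra, capped by the rule, was at 7.63 CPM in members and 988 CPM in precursors.

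A list of 26 genes of premyelinating cells had 23 genes of at least 20 CPM in 1 of the 3 stages. Of these 23, 20 were above both other stages in all 8 libraries. Over all 7889 genes of that level, 412 (5.22%) were. Frmd4a, a scaffold protein of cell polarity, was at 9719 ± 1221 CPM in members against 376 CPM in precursors and 561 CPM in mature cells. Fyn, the kinase that links axon contact to myelin formation, was at 2250.0 ± 374 CPM against 274 and 170 CPM. Tns3, a focal adhesion protein, was at 1407 ± 223 CPM against 210 and 166 CPM. Nfasc, the cell adhesion protein neurofascin, was at 3039 ± 340 CPM against 217 and 1363 CPM. Pik3r3, a regulatory subunit of phosphoinositide 3-kinase, was at 1707 ± 341 CPM against 86.4 and 201 CPM. Cemip2, a hyaluronidase, and Rras2, a small GTPase, were lower, at 292 ± 78.6 and 298 ± 76.8 CPM, and again above both neighbours in every library. The list was compiled with the biology of this stage and earlier results of these data known, so its direction is not independent evidence.

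The 15 genes outside the rule with the widest margin over both neighbours were led by a long noncoding RNA. Gm13187 was at 1214 ± 379 CPM against 13.2 CPM in precursors and 46.4 CPM in mature cells. It lies inside Frmd4a on the opposite strand, as does Gm13179, the second of the 15. Gm32743 and 4932413F04Rik lie opposite Tmem108, Gm16364 lies opposite Fyn, and Gm45600 lies opposite Enpp6. For these 6 the counting of strand is not given in the sources used here, so reads of a gene and its antisense partner cannot be told apart. Enpp6 is a gene of the rule, so the margin of Gm45600 may be in part set by the rule. The others of the 15 were Frmd4a, Epb41l2, Fam163a, Tmem108, Mpzl1, Eya2, Pik3r3, Fyn and Rhbdl2. Tmem108, a transmembrane protein, was at 2169 ± 364 CPM against 213 and 119 CPM. Mpzl1, a relative of the peripheral myelin protein zero, was at 688 ± 114 CPM against 76.7 and 50.8 CPM. Epb41l2, which anchors membranes to the actin cytoskeleton, was at 1058 ± 166 CPM against 80.5 and 63.7 CPM.

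**Figure D2:**
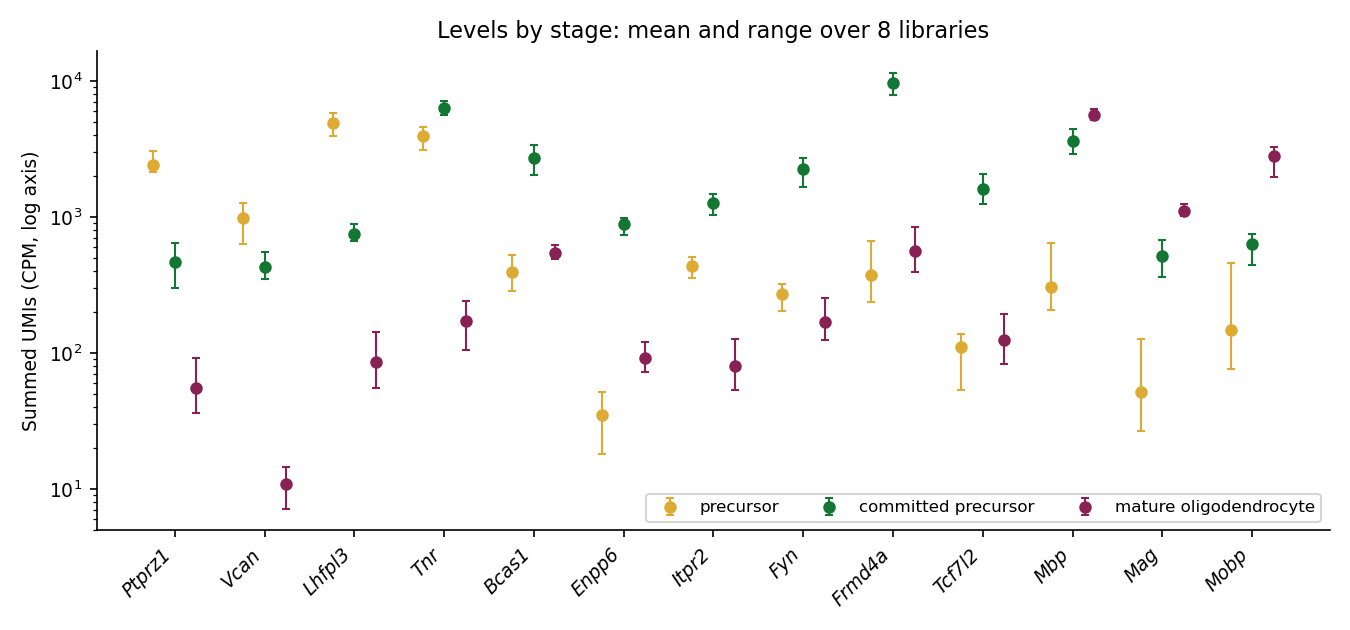
Summed UMIs in CPM (log axis) of 13 genes in precursors, committed precursors and mature oligodendrocytes; points are means over 8 libraries and bars run from the lowest to the highest library. The first 3 genes fall from precursors on, the next 7, from Tnr to Tcf7l2, stand highest in the committed class, and the last 3 rise towards mature cells. The first 3 were among the genes that chose the precursors, and Mag and Mobp among those that chose the mature cells. Bcas1, Enpp6 and Tcf7l2 were among the genes that chose the committed class, and Enpp6 was also capped in the other stages.

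Genes of precursors were partly kept. The sum of 16 precursor genes was 22955 ± 1241 CPM in precursors, 11321 ± 912 CPM in members and 1269 ± 159 CPM in mature cells. In all 8 libraries 8 of the 16 lay between the neighbours and fell with stage, against 293 of 7889 genes overall (3.71%). Among these 8, Ptprz1, Lhfpl3, Vcan and Cspg4 were used with Pdgfra to choose the precursors. Their fall, and that of the sum, is in part set by that rule. Ptprz1, a receptor phosphatase, went from 2431 to 466 to 55.8 CPM. Lhfpl3 went from 4914 to 756 to 86.6 CPM, and the matrix proteoglycan Vcan from 981 to 426 to 10.9 CPM. Tnr, the matrix protein tenascin-R, went the other way first, from 3967 CPM to 6309 ± 542 CPM, and then fell to 171 CPM. Sox6, a repressor of myelin genes, was still at 1532 ± 220 CPM, near its 1616 CPM in precursors, and at 32.2 CPM in mature cells.

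Cell division genes were near the level of cells that do not divide. A list of 23, of which 7 reached 20 CPM in 1 of the 3 stages, summed to 327 ± 96.5 CPM in precursors, 65.7 ± 14.2 CPM in members and 63.0 ± 11.4 CPM in mature cells. Excitatory neurons, which do not divide, had 55.6 ± 5.89 CPM. Top2a, a topoisomerase of dividing cells, went from 75.2 CPM to 1.51 CPM, and Mki67 from 25.2 to 1.54 CPM.

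Summed over all members, myelin genes were already on but not at their mature level. The sum of 28 myelin genes was 2152 ± 479 CPM in precursors, 11981 ± 1807 CPM in members and 24064 ± 1318 CPM in mature cells. Of the 27 at 20 CPM or more, 16 lay between and rose in all 8 libraries, against 292 of 7889 genes overall (3.70%). Mbp, which encodes a main protein of compact myelin, was at 3609 ± 567 CPM in members and at 5660 CPM in mature cells. Mobp, a late structural protein, was at 633 ± 111 CPM against 2808 CPM, and Mog, on the outer face of myelin, at 216 ± 114 CPM against 1060 CPM. Opalin and Aspa, genes of full maturity, were at 34.0 ± 17.9 and 95.2 ± 56.4 CPM against 325 and 576 CPM. Mag, Mog and Mobp chose the mature nuclei, so their level there is set by that rule. In the 212 members grouped below for the highest share of myelin UMIs, Mbp was at 7309 ± 612 CPM, above its mature level. Mobp was at 1962 ± 484 CPM in these 212, and the grouping itself raises both. Against the trend, Sirt2, a deacetylase of the myelin sheath, and Cd9, a tetraspanin, were above both neighbours in every library. Sirt2 was at 714 ± 116 CPM against 98.7 and 286 CPM.

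Among 34 transcription factors, 4 of the 28 at 20 CPM (14.3%, against 5.22% of all genes) were above both neighbours in all 8 libraries: Sox4, Nkx2-2, Zfp488 and Tcf7l2, a gene of the rule. Zfp488, a zinc finger factor that promotes differentiation, was at 56.2 ± 16.5 CPM against 17.4 and 17.5 CPM. Nkx2-2, which acts at the onset of differentiation, was at 66.9 ± 12.8 CPM against 31.0 and 12.3 CPM. Myrf, which switches on myelin genes, was at 123 ± 21.8 CPM against at most 18.3 CPM in precursors, and was above the 114 CPM of mature cells in 4 of 8 libraries. St18 and Zfp536 rose through the class, from 147 to 2547 to 3836 CPM and from 275 to 778 to 2351 CPM. Olig1 was below both neighbours in all 8 libraries, at 28.2 CPM against 80.5 and 56.2 CPM. Precursors were chosen in part by UMIs of Olig1, Olig2 and Sox10, so its gap to them is in part set by that rule. Over all genes 104 of 7889 (1.32%) were below both. Olig1 was also lower in dual-indexed libraries, as given below.

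Of 38 cytoskeleton and guidance genes at 20 CPM, 10 (26.3%) were above both neighbours in all 8 libraries, against 5.22% of all genes of that level. They included Map1b, a microtubule protein of growing processes, at 1174 ± 198 CPM against 143 and 179 CPM. Sema4d, a semaphorin, was at 585 ± 123 CPM against 49.4 and 214 CPM, and Rnd2, a small GTPase, at 60.2 ± 20.3 CPM against 7.66 and 6.02 CPM. In 4 other lists the share above both was near that background. In cholesterol and lipid synthesis 2 of 27 (7.41%) were above both, 1 of them Lss, a sterol synthase, at 32.8 ± 9.56 CPM against 15.1 and 21.7 CPM. Among chromatin genes 2 of 37 (5.41%) were above both, Chd3 and Arid1a. Chd3 was at 562 ± 117 CPM against 127 and 70.4 CPM. Chd8 itself was at 77.6 ± 16.9 CPM in members, 79.4 CPM in precursors and 77.2 CPM in mature cells. Of 39 ion channel and receptor genes 7 (17.9%, against 3.71% of all genes) fell through the class and 2 (5.13%) were above both, Grik2 and Kcnq3. In the signalling list Gpr17 and Bmp4, both in the rule, were the 2 of 32 (6.25%) above both. Rnf43, a Wnt feedback inhibitor, was at 46.6 CPM in members, 174 CPM in precursors and 43.4 CPM in mature cells. Axin2, a target of Wnt signals, was at 22.1 ± 9.17 CPM against 18.0 and 4.76 CPM.

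Genes below both neighbours by the widest margin were fewer and weaker in level. Hepacam, a glial adhesion protein, was at 46.1 ± 17.4 CPM against 142 CPM in precursors and 167 CPM in mature cells. Pstpip2 was at 75.5 ± 25.3 CPM against 204 and 400 CPM, and Grik1, a kainate receptor subunit, at 82.1 ± 30.8 CPM against 372 and 197 CPM.

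Members with a Bmp4 UMI (302) differed from those without one (454). Median depth was similar, at 3909 and 4274 UMIs. With Bmp4, precursor genes summed to 16591 ± 1589 CPM against 8035 ± 740 CPM, higher in 8 of 8 libraries. Myelin genes summed to 7723 ± 1523 CPM against 14730 ± 2375 CPM, higher in 0 of 8. Premyelinating genes, higher in 2 of 8, were at 29776 ± 5669 and 32145 ± 5553 CPM. Of 5495 genes with at least 100 UMIs in the members, 370 were higher and 358 lower with Bmp4 in every library. Arhgap24, a GTPase-activating protein, was at 1921 ± 306 CPM with Bmp4 and 563 ± 89.8 CPM without. Sema5b was at 202 ± 68.8 and 61.9 ± 13.8 CPM. In the other direction Cemip2 was at 26.6 CPM with and 461 CPM without Bmp4, and Prr5l at 22.6 and 424 CPM. Enpp6 was alike, at 911 and 886 CPM. Bmp4 is in the rule, and a nucleus without it had to pass by the other genes.

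The 636 nuclei under both marker thresholds were then ordered by their share of UMIs in the myelin list and divided in 3 groups of 212, at 0.878% and 1.51%. This division was made after the data were seen, 138 nuclei lay near a dividing value, and the rise of the myelin genes themselves follows from it. From low to high, Mbp was at 870, 4035 and 7309 CPM and Mobp at 32.8, 67.9 and 1962 CPM. Median depth was 3537, 4247.5 and 4558.5 UMIs from low to high. Bmp4 was at 308, 190 and 20.9 CPM, Gpr17 at 533, 276 and 60.4 CPM, and Neu4, a sialidase of this stage, at 295, 203 and 18.9 CPM. Lhfpl3 was at 2132, 520 and 87.8 CPM. Sox6 was at 3169, 2191 and 288 CPM. Each of these was lower in the high than in the low group in all 8 libraries. Enpp6 was at 805, 1345 and 915 CPM. Bmp4, Gpr17 and Enpp6 are all gate genes, and a nucleus low in 1 had to pass by the others, so their courses are not independent of the rule.

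Some genes stood highest in the middle group. Ust, a sulphotransferase, was at 2350, 3088 and 813 CPM, and Fam163a at 89.1 CPM in the low and 187 CPM in the middle group, highest in the middle in 8 of 8 libraries each. Parvb, a focal adhesion protein, was at 56.3, 436 and 240 CPM, highest in the middle in 7 of 8. Pik3r3 was at 501, 3545 and 2013 CPM, in 6 of 8. Tcf7l2 was at 734, 2593 and 2281 CPM and Nfasc at 1313, 4815 and 4447 CPM, so that both were higher in the middle than in the low group. Tcf7l2 counted in the rule together with Bcas1, which was at 3974, 4456 and 1634 CPM, and Sox10. The course of Tcf7l2 is therefore not independent of the rule.

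Others rose late. Cemip2 was at 7.13, 66.0 and 948 CPM, Rras2 at 29.8, 197 and 769 CPM and Man1a, a mannosidase, at 33.8, 98.8 and 898 CPM. The transcription factors Zfp536 and Prox1 were at 213, 652 and 1704 CPM and at 9.94, 13.7 and 107 CPM. Smad7, an inhibitor within the BMP pathway, was at 32.8, 120 and 312 CPM. Hmgcs1, an enzyme of cholesterol synthesis, was at 17.5, 59.8 and 122 CPM. Each of these was higher in the high than in the low group in all 8 libraries. The plot by myelin share shows the 3 courses.

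**Figure D3:**
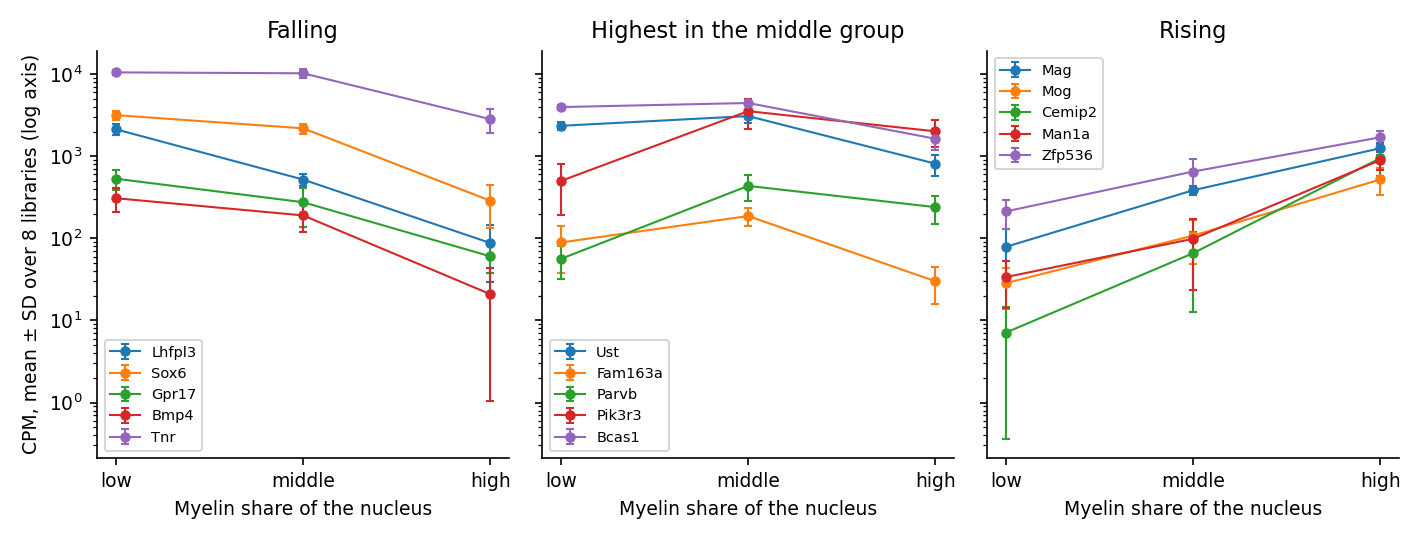
CPM (log axis, mean ± SD over 8 libraries) of 15 genes in 3 groups of 212 member nuclei, low, middle and high in the share of UMIs from myelin genes. Lower bars are cut short where the SD would reach 0. The 5 genes of the left panel fall to the right, Ust and Fam163a stand highest in the middle, and Cemip2 and Man1a rise most.

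The share of nuclei in the low, middle and high groups was 34.2% ± 9.55, 29.9% ± 4.53 and 35.8% ± 6.48 in WT libraries (SD, n = 4). In Chd8het libraries it was 33.1% ± 2.42, 35.5% ± 8.07 and 31.4% ± 6.54. The ranges of the 2 genotypes overlapped in each group.

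The design asks whether the genotype changes the number of committed precursors. They made up 0.908%, 1.08%, 0.876% and 1.05% of kept nuclei in WT male 1, WT male 2, WT female 1 and WT female 2. In the Chd8het libraries they made up 0.759%, 1.25%, 0.895% and 1.08%. The widest exact 95% binomial interval was 0.860% to 1.33%, for WT male 2, and such intervals cover counting error only. WT averaged 0.977% ± 0.0998 and Chd8het 0.995% ± 0.213, and the groups overlapped. The difference of 0.0181 percentage points had p = 0.8 in an exact two-sided permutation test over 8 libraries (adjusted p = 0.971 over 3 tests), where 4 against 4 cannot go below 0.029. The Chd8het library was higher in 3 of 4 pairs.

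Of the lineage (members, precursors and mature cells), members were 12.3%, 15.4%, 12.4% and 16.4% in WT and 10.7%, 19.2%, 12.3% and 14.4% in Chd8het libraries. The means were 14.1% ± 2.10 and 14.2% ± 3.67, with p = 0.971 in the exact permutation test. Median UMIs per member averaged 3921 ± 535 in WT and 4247 ± 324 in Chd8het libraries, with p = 0.371 in the exact permutation test. It was higher in the Chd8het library in 4 of 4 pairs (p = 0.125 in the exact test within pairs, the smallest that 4 pairs allow). The difference of 326 UMIs was 97.6 without WT male 1, 190.2 without Chd8het female 2 and 500.5 without WT female 2.

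Index type separated the shares more than genotype did. Single-indexed libraries held 0.759% to 0.908% members and dual-indexed libraries 1.05% to 1.25%, without overlap (exact permutation p = 0.029, the smallest possible). Median UMIs per member were 3235.5 to 4147 and 4228.5 to 4655. When every nucleus was thinned to 1000 UMIs, which left out 2158 shallower nuclei (1067 in WT and 1091 in Chd8het libraries), 141 of 75027 nuclei passed. The shares were then 0.171% to 0.261% in single-indexed and 0.143% to 0.188% in dual-indexed libraries, and overlapped (exact permutation p = 0.257). They also overlapped with a gate of 5 UMIs (exact permutation p = 0.486). They did not overlap without predicted doublets, with stricter nuclei or with a mitochondrial limit of 5% (exact permutation p = 0.029 each). Without the members past a marker threshold, shares were 0.6387% to 0.8460% in single-indexed and 0.8457% to 1.0548% in dual-indexed libraries. These ranges overlapped by a narrow margin, and the difference was not tested. Between genotypes the thinned shares were 0.192% ± 0.0495 and 0.183% ± 0.0145.

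**Figure D4:**
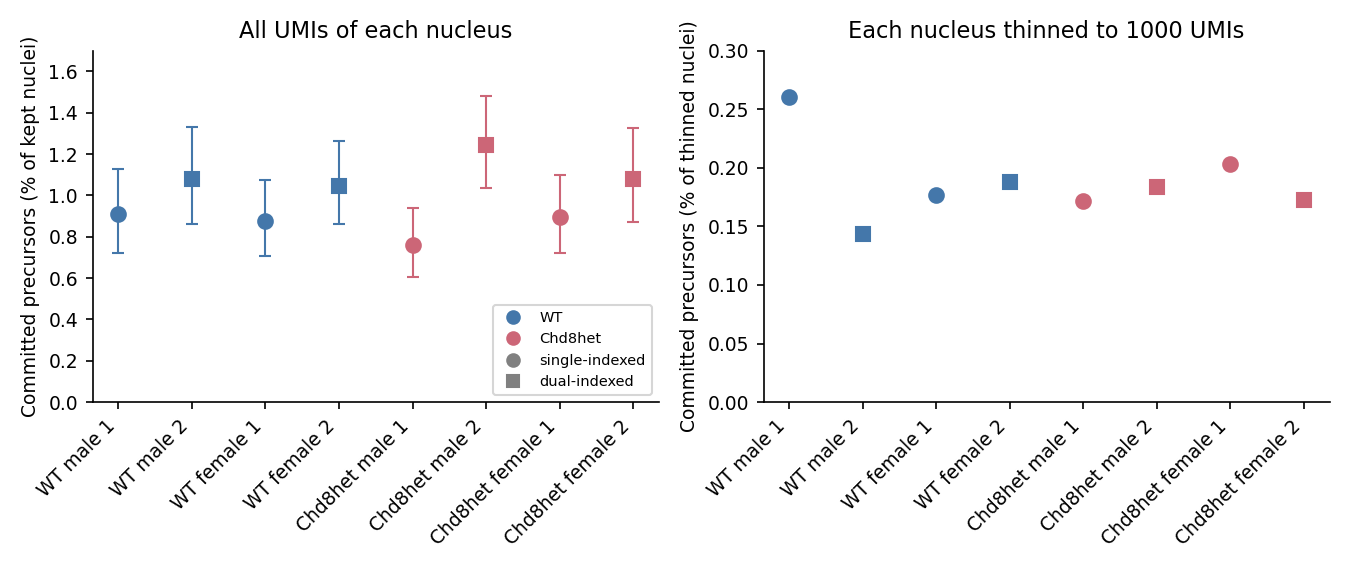
Share of kept nuclei that are members in each of the 8 libraries, with all UMIs (left, bars are exact 95% binomial intervals) and after thinning each nucleus to 1000 UMIs (right, no bars). Colours give genotype, circles are single-indexed and squares dual-indexed; squares lie above circles on the left and among them on the right.

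Before other genes were compared, the level of the targeted gene was examined. Chd8 was at 94.8, 94.4, 65.4 and 99.6 CPM in the WT members and at 85.4, 103, 67.6 and 56.7 CPM in the Chd8het members, after TMM scaling (trimmed mean of M values). The groups overlapped, and the log2 difference was -0.20 (SE 0.21, edgeR quasi-likelihood adjusted p = 1). The level in members rests on 283 UMIs in all. A 3' tag outside an altered part would not check the label, and the allele is not described in the sources used here. WT and Chd8het below therefore mean the libraries so labelled.

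The fit with a count filter called no gene between genotypes in members. Of 6770 genes tested in a fit with sex, 0 passed an adjusted p of 0.05 (0.0%, edgeR quasi-likelihood with Benjamini-Hochberg adjustment), and 184 (2.72%) had an unadjusted p under 0.05. DESeq2 called 0 as well, with 56 (0.827%) at an unadjusted p under 0.05, and edgeR with no count filter called 7 of 20387 genes (0.0343%). Samples were paired by sex and replicate number. With a term for each pair, 1 of 7368 genes (0.0136%) was called, Col25a1, and 380 (5.16%) had an unadjusted p under 0.05. Counts were also simulated at this depth and given to the fit with sex and no pair term. It recovered 94 of 189 genes changed by a log2 value of 1 (49.7%) and 183 of 187 changed by 2 (97.9%). The simulation gave every gene the same dispersion, held no index or replicate difference, and changed only genes with a mean of at least 10 UMIs. These shares may therefore be too high for the data. Smaller changes were thus often not detectable at this depth.

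Col25a1 was at 3.16, 23.6, 79.6 and 135 CPM in WT and at 19.9, 37.1, 176 and 434 CPM in Chd8het members, in the order given above. The Chd8het library was higher in 4 of 4 pairs while the groups overlapped. The log2 difference was 1.39 (SE 0.23, edgeR adjusted p = 0.00956 with the pair term) and 1.38 (SE 0.38, adjusted p = 1) without it. Leaving out Chd8het female 2 gave a log2 difference of 0.80 for Col25a1 and 0.77 for Bnc2, which was at 1.35 with all libraries. Of the 397 Col25a1 UMIs in members, 3 nuclei held 63.7%. Bnc2 was also highest in Chd8het female 2, at 12.6, 4.72, 62.5 and 87.1 CPM in WT and 14.2, 35.4, 94.7 and 264 CPM in Chd8het members. Only 20 nuclei held a Bnc2 UMI, and its adjusted p with the pair term was 0.0531 (edgeR). Both genes were the ones that marked the 10 nuclei without Bcas1 and Sox10, of which 2 were in WT and 8 in Chd8het libraries. In the 636 nuclei under both marker thresholds Col25a1 had 0, 3, 3 and 12 UMIs in the WT and 2, 6, 3 and 158 UMIs in the Chd8het libraries. There Chd8het female 2 held 158 of 187 UMIs, and its level of 430.2 CPM stood apart from the other 7 libraries, which had 28.6 CPM or less. Bnc2 had 2, 2, 11 and 9 UMIs in these nuclei in WT and 1, 0, 1 and 93 in Chd8het libraries, so the same library held most of both genes there. In them the Chd8het library was higher in 3 of 4 pairs for Col25a1 and in 1 of 4 for Bnc2.

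The other 8 of the 10 genes with the smallest p were not called in the filtered fit or with the pair term. The 10 were picked by p in these libraries, which favours a lack of overlap between genotypes. The share of all genes without overlap was not counted. With no count filter edgeR called Cnih3 (adjusted p = 0.0164), Gm19500 (0.0288), E330020D12Rik (0.00789), Bnc2 (0.0164) and Col25a1 (0.00279). The last 2 of the 7 called there, Gm32647 (adjusted p = 0.000454, edgeR) and Ptgds (0.00279), were named after their values were seen. Gm32647 had 5, 7, 4 and 4 UMIs in WT and 42, 15, 3 and 36 in Chd8het members. Ptgds had 267, 12, 52 and 27 UMIs in WT and 71, 48, 25 and 29 in Chd8het members, so that WT male 1 stood apart. All 7 had been tested in the filtered fit, at an adjusted p of 1. Cnih3, an auxiliary subunit of glutamate receptors, was at 3.16, 2.36, 2.84 and 10.4 CPM in WT and at 19.9, 30.3, 27.0 and 26.2 CPM in Chd8het members. The groups did not overlap, on 55 UMIs in all, and the log2 difference was 2.34 (SE 0.52, edgeR adjusted p = 1). Sdk1, an adhesion protein of synapses, was at 123, 80.3, 88.1 and 139 CPM and at 154, 209, 178 and 268 CPM, again without overlap (log2 0.92, SE 0.22). Its adjusted p was 1 without and 0.0531 with the pair term (edgeR). Ctnna3, an alpha-catenin and the most abundant of the 10 by UMIs, was at 1037, 1421, 915 and 1195 CPM in WT and at 829, 658, 714 and 777 CPM in Chd8het members. The log2 difference was -0.62 (SE 0.16), on 3129 UMIs. Cntnap5b and Cit were higher and the noncoding RNAs Gm19500, E330020D12Rik and B430010I23Rik lower in the Chd8het library of all 4 pairs, with no call in the filtered fit or with the pair term. In the 636 nuclei under both marker thresholds Sdk1 overlapped between genotypes, at 76.4 to 145.5 CPM in WT and 122 to 289 CPM in Chd8het libraries, and was higher in the Chd8het library of 4 of 4 pairs. Cntnap5b, with 69 of its 194 UMIs in these nuclei, overlapped there too and was higher in 3 of 4 pairs. Of the 10 genes, 5 did not overlap in these nuclei. They were Cnih3, Gm19500, Ctnna3, B430010I23Rik and Cit, on 36, 81, 2231, 114 and 57 UMIs. In precursors of the same libraries Ctnna3 differed by a log2 value of -0.15 (SE 0.13), Sdk1 by 0.08 (SE 0.16) and Cnih3 by 1.26 (SE 0.38).

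**Figure D5:**
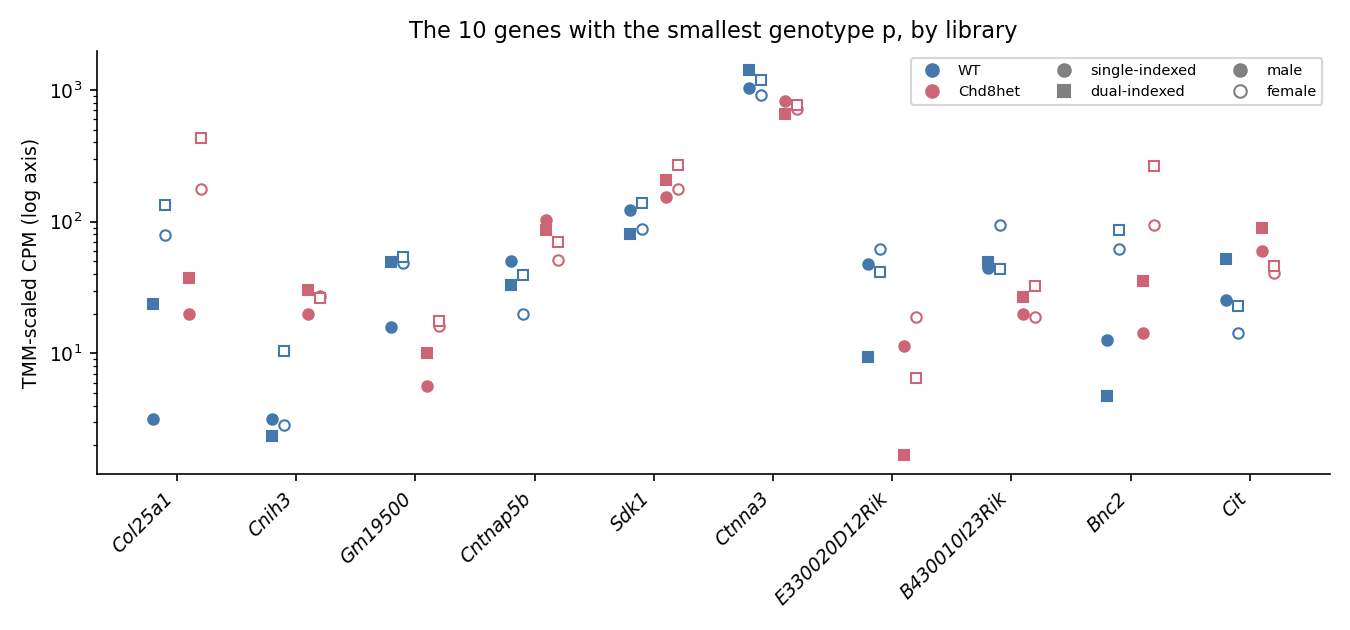
TMM-scaled CPM (log axis) in each of the 8 libraries for the 10 genes with the smallest genotype p in members. Colours give genotype, filled points are male, open points female, circles single-indexed and squares dual-indexed. The colours do not overlap for Cnih3, Cntnap5b, Sdk1, Ctnna3 and B430010I23Rik, and overlap for the other 5. Choice by the smallest p favours such separation, and the share over all genes was not counted.

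No marker of the class was called between genotypes. Of the 6, all but Itpr2 are genes of the rule, so their level among members was in part set by it. Enpp6 differed by a log2 value of 0.03 (SE 0.15), Gpr17 by -0.26 (SE 0.24), Bmp4 by -0.02 (SE 0.30), Bcas1 by 0.04 (SE 0.15), Tcf7l2 by 0.24 (SE 0.16) and Itpr2 by 0.11 (SE 0.15). Each of these differences but that of Gpr17 and Tcf7l2 was smaller than its SE. Of 24 premyelinating genes tested 0 were called, 21 (87.5%) were higher in Chd8het members against 47.9% of all genes tested, and the median log2 difference was 0.10 against -0.01 over all 6770 genes. Of 24 myelin genes tested 0 were called, 7 (29.2%) were higher, and the median was -0.10. The share was as low in the precursor (30.8%), signalling (31.0%) and ion channel (30.8%) lists. Among markers listed for other cells, which precursors also held, it was 1 of 6 astrocyte markers (16.7%) and 6 of 9 neuron markers (66.7%). Of these 0 were called, and their part in the list shifts was not tested. Of the premyelinating genes 2 (8.33%, against 2.72% of all genes) had an unadjusted p under 0.05, both higher. Cemip2 was at 370, 248, 207 and 220 CPM in WT and at 433, 364, 306 and 351 CPM in Chd8het members, and Tcf7l1 differed by a log2 value of 0.40 (SE 0.18). Their edgeR adjusted p was 1 each. No gene of the precursor, transcription, signalling, cholesterol, cytoskeleton, chromatin, ion channel or autism lists was called, with medians from -0.07 to 0.04.

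The difference between genotypes did not differ detectably between the sexes or between stages. Of 7368 genes 0 were called for genotype by sex (0.0%, with 156 or 2.12% at an unadjusted p under 0.05), and of 9238 genes 0 for genotype by stage, members against precursors (0.0%, with 344 or 3.72%). With no count filter the latter was 1 of 22242 (0.0045%). In the precursors of the same libraries 0 of 7845 genes were called for genotype (0.0%, with 285 or 3.63% at an unadjusted p under 0.05). All are edgeR quasi-likelihood tests.

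The same fit called 12 of 6770 genes between the sexes (0.177%), 7 higher (0.103%) and 5 lower (0.0739%) in females. Xist and its antisense partner Tsix, whose reads cannot be told apart without strand, at 1436 to 2236 and 2142 to 4304 CPM in the 4 female libraries, stood at 1.69 CPM or less in the 4 male libraries. Uty, Ddx3y, Eif2s3y and Kdm5d, on the Y chromosome, were lower in females, with edgeR adjusted p of 0.000778 or less. The other 6 were autosomal. Col25a1 (log2 3.18, SE 0.40), Bnc2 (2.87, SE 0.40), Fbxl7 (2.33, SE 0.30), the noncoding RNA Gm6260 (3.75, SE 0.52) and Neat1 (1.60, SE 0.25) were higher in females. Kcnip4, a potassium channel partner of neurons, was lower (-1.13, SE 0.18). For Col25a1, Bnc2, Fbxl7 and Gm6260, 3 nuclei held 63.7%, 58.3%, 44.4% and 65.5% of the UMIs. In the 636 nuclei under both marker thresholds Fbxl7 was at 30.2 CPM in males and 78.9 CPM in females, and Neat1 at 31.4 and 68.6 CPM. Fbxl7 varied widely among the Chd8het libraries in these nuclei, at 75.5 ± 75.6 CPM (SD, n = 4), against 33.6 ± 7.06 CPM in WT. There Chd8het female 2 held most of the Col25a1 and Bnc2 UMIs, as given above. Of the 10 nuclei without Bcas1 and Sox10, 8 were in female libraries. For Kcnip4, males ranged from 2073 to 4023 CPM and females from 1261 to 1833 CPM over all members. In the 636 nuclei under both marker thresholds it was at 1074 and 915 CPM. Of 9 neuron markers tested, 9 were lower in female members and 0 were called, while 48.5% of all 6770 genes tested were lower in females. Their part in the Kcnip4 difference was not tested. Without WT male 1 the sex count was 37, and with an index term it was 65 of 7368 (0.882%). Neat1 lost its call without WT male 2, WT female 2, Chd8het male 1 or Chd8het female 2, and Kcnip4 without Chd8het male 1.

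Index type moved more genes than genotype or sex. With index type as the contrast, 356 of 7368 genes (4.83%) were called, 253 higher (3.43%) and 103 lower (1.40%) in dual-indexed members (edgeR). Of 8 astrocyte markers tested 5 were called higher, with a median log2 difference of 1.37. Sox10 was at 455, 526, 421 and 427 CPM in the single-indexed members and at 222, 255, 233 and 231 CPM in the dual-indexed members, a log2 difference of -0.95 (SE 0.14, edgeR adjusted p = 0.0012). The groups did not overlap. Sox8, Olig1, Gpr17 and Neu4 were also called lower. Sox10 and Gpr17 are genes of the rule, so these tests use values that chose the members. Depth and the number of nuclei with astrocyte markers, in which Sox10 was low, also differed between index types as given above, and their part was not tested. Each genotype and sex held both index types in equal number. Index type coincides with replicate number, so the 2 cannot be told apart.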

How the data were processed

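The authors deposited whole-number UMI counts per gene and barcode for 8 libraries, with barcodes already limited. STAR 2.7.9a, STARsolo, Cell Ranger and the build mm10 are named in the submitters' processing notes; the sources used here do not give annotation, strandedness or intron use. Members were chosen by the rule stated in the results, and the members, gene lists, division by Bmp4 and division by myelin share were chosen with earlier results of these data known. Doublets were predicted per library with Scrublet (scanpy 1.11.5) and left in.

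UMI counts were summed per library over members and, separately, over precursors and mature oligodendrocytes, chosen by UMIs as stated in the results. Levels are CPM of these sums; log2 level differences used a pseudocount of 1 CPM. Genotype and sex were tested with edgeR 4.0.16 (quasi-likelihood F test, two-sided, TMM scaling, filterByExpr with a minimum count of 10, Benjamini-Hochberg adjustment over all genes tested, called under 0.05) in 1 fit of 8 libraries; CPM in those comparisons are TMM-scaled. Standard errors come from the F statistic. Alternatives were DESeq2 1.42.0, other scaling and filters, a pair term, an index term, doublets removed, stricter nuclei, a gate of 5 UMIs and each library left out. Shares were compared by exact permutation over libraries.

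Same-numbered libraries of a sex deviated together over 3832 genes (r = 0.486, 0.373, 0.391 and 0.481 for female 1, female 2, male 1 and male 2), and each correlated best with its own number. Libraries of a pair also share sex and index type, and only genotype means were removed, so these correlations do not show litter. The numbers were taken as the litter- and sex-matched pairs of the labels' protocols, and litter and index type cannot be told apart. The biological coefficient of variation was 0.203.

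Named genes were those of the lists; the called genes of a fit, filled to 10 by unadjusted p; the 15 widest above or below both neighbours at 50 CPM or more; and the 10 widest each way by Bmp4. The fit was tested on simulated counts. Coordinates and overlaps are from GENCODE M21 (GRCm38), matching 32235 of 32285 gene identifiers.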

Additional observations from a re-analysis of the deposited data

Results flagged for a closer look

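Of 28 groups of 4 libraries examined, 4 held a library far from the other 3. About 1 in 20 would do so if the 4 values came from 1 normal distribution. Each group mixed both sexes and both index types, and some values rest on few UMIs, so that rate need not hold here. Cnih3 in WT members was at 10.4 CPM in female 2, on 5 UMIs, and at 2.36 to 3.16 CPM in the other WT libraries, on 1 UMI each. Gm19500 was at 15.8 CPM in WT male 1, on 5 UMIs, and at 48.3 to 53.9 CPM in the other WT libraries, on 17 to 26 UMIs. B430010I23Rik was at 93.8 CPM in WT female 1 and at 43.6 to 49.6 CPM in the others. Chd8 was at 65.4 CPM in WT female 1 and at 94.4 to 99.6 CPM in the other WT libraries, while the Chd8het libraries spanned 56.7 to 103 CPM. The Chd8 difference between genotypes was a log2 value of -0.20, and leaving out 1 library each gave -0.31 (without Chd8het male 2) to -0.02 (without WT female 2), with -0.27 without WT female 1.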

How the results depend on the processing

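The difference in the share of kept nuclei was 0.0181 percentage points and changed sign to -0.0171 with a mitochondrial limit of 5% and to -0.00947 after thinning; leaving out 1 library each gave -0.0653 to 0.0969. The difference in the lineage share was 0.0407 and changed sign to -0.0637 without predicted doublets, -0.0240 at the limit of 5% and -0.691 after thinning, with -1.63 to 1.19 over the 8 left-out libraries. None of these alternatives had an exact permutation p under 0.371. No share kept a direction, and the block of pairs gave p = 0.625 and 1 for them in exact tests within pairs. The genotype count of 0 became 1 with the replicate block, 1 with an index term (Col25a1 in both) and 7 with no count filter, all 7 of them tested in the filtered fit too (the cause was not tested), and was 0 in each of the 8 left-out fits and in the other 5 alternatives. All 10 named genotype genes held their direction in every alternative that tested them. They were chosen by p in the same libraries, so a kept direction was favoured. The 636 nuclei under both marker thresholds were not among these alternatives. There Bnc2 was higher in the Chd8het library of 1 pair and lower in that of 3 pairs. The sex count of 12 became 65 with an index term, 37 without WT male replicate 1, and 10 to 37 over the left-out libraries; the cause was not tested. Neat1 was not called without WT male 2, WT female 2, Chd8het male 1 or Chd8het female 2, nor Kcnip4 without Chd8het male 1. The genotype by stage count of 0 became 1 with no count filter. The count of 412 genes above both neighbours ranged from 410 to 510 over 12 alternatives, chosen after the data were seen; it was 410 with stricter nuclei and 510 without the nuclei past a marker threshold or with no UMI of Bcas1 and Sox10. For the 30 genes widest above or below both neighbours, 22 of 360 alternatives moved the smaller margin by at least the SD over libraries. No direction changed. The margin of Hepacam went from a log2 value of -1.60 to as far as -2.76, and that of Pstpip2 from -1.42 to as far as -2.66. Precision is limited by 82 to 124 member nuclei and 334235 to 621866 member UMIs per library.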

Other observations

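The smallest subset of the members, 10 nuclei with no UMI of Bcas1 or Sox10, held Mbp at 1659 CPM, and the 28 myelin genes summed to 7173 CPM in them. It was spread as 1 in WT female 1, 1 in WT female 2, 2 in Chd8het male 2, 3 in Chd8het female 1 and 3 in Chd8het female 2. Of all members, 120 had no UMI of Sox10, Olig1, Olig2, Myrf or Nkx2-2.

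Along the myelin share in the 636 nuclei under both marker thresholds, 7 Wnt pathway genes of the signalling list had at least 100 UMIs in members. Rnf43, a Wnt feedback inhibitor, was at 140, 18.6 and 10.4 CPM in the low, middle and high groups, and Lgr5, a receptor, at 101, 83.7 and 7.15 CPM. These and Lrp6 and Ctnnb1 were lower in the high than in the low group in all 8 libraries. Znrf3, related to Rnf43, was at 96.4, 75.9 and 69.97 CPM and lower in 7 of 8. Apc, at 283, 216 and 271 CPM, was lower in 5 of 8, and Fzd3, at 48.0, 42.8 and 41.4 CPM, in 4 of 8. Outside the signalling list, Tcf7l2 was at 734, 2593 and 2281 CPM and Tcf7l1 at 135, 469 and 330 CPM. Both were higher in the high than in the low group in all 8 libraries. Tcf7l2 is a gene of the rule, so its course is not independent of it. Genes of other lists, such as Chd3, Chd6, Gria2 and Kcnd2, were also lower in the high than in the low group in all 8 libraries. The share of all genes that fell in this way was not counted, so the falls are not shown to be particular to Wnt genes.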
